A study of Paramacrobiotus metropolitanus with 7 samples.

Results

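Among the 26306 transcripts quantified in sexed adults of the tardigrade Paramacrobiotus metropolitanus, 16 were expressed in every female library and lay at or near 0 in every male library. These female-limited transcripts belonged to 16 loci. They were selected on the measured values themselves, as transcripts with at least 5 TPM in each of the 3 female libraries, below 0.5 TPM in each of the 4 male libraries, and a maximum over minimum below 4 among the females. The difference between the sexes in these 16 is therefore a description of the choice and was not tested. TPM here is a transcript's level corrected for its length and for library size, which the authors further scaled between libraries by the TMM method. Both groups were whole bodies of the TYO strain, hatched from eggs kept apart, reared separately until the gonads could be told apart, and pooled by sex in tubes before extraction of poly A RNA. No treatment, age in days or batch is given for either sex, and the labels do not say whether the tubes of a sex came from separate cultures, so that any p-value measures only the spread between these libraries.

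In a gonochoristic animal each individual is either female or male. An adult female carries an ovary in which oocytes grow and are stocked with yolk, eggshell material and messenger RNA for the embryo, whereas a male carries a testis filled with sperm. In many animals, transcripts seen in one sex alone are therefore largely those of the germ line and of the tissues that serve it. Whole bodies were used here, so a transcript made in a tissue that males lack and a transcript made at a lower level per cell cannot be told apart. The identifiers carry no annotation in the files, and 0 of the 24899 loci had a match in the RefSeq gene table of the Prichtersi_v1.0 assembly. Hence neither gene roles nor positions nor sequences are given for the 16, and they are described by level, by the counts behind the level, by the other transcripts of their loci and by their neighbours in locus number. The DMRT gene PARRI_0003093.t1, of a family of transcription factors of sexual development, was at 0 in females 1 to 3. It lay between 2.49 and 10.8 TPM in the male libraries. PARRI_0003090.t1 of the same family had 0.173, 1.16 and 0.163 TPM in females 1 to 3, against at least 15.4 TPM in each male library. The study reported both as higher in males from these same libraries, so they are no independent check of the sex labels.

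The male ceiling made the set small. In all, 9730 transcripts had at least 5 TPM in each female library, and 17 of these stayed below 0.5 TPM in each male library. The spread limit then removed 1, PARRI_0008850.t1, whose maximum over minimum in females was 4.03. The largest ratio inside the limit was 3.34, in PARRI_0010175.t1. The highest male value inside the ceiling was 0.479 TPM, in PARRI_0015738.t1, and the nearest transcript outside it was PARRI_0003407.t1, which reached 0.510 TPM in male library 3. On the female side PARRI_0021751.t1 and PARRI_0007135.t1 had the lowest values inside, 5.63 TPM each, and PARRI_0022034.t1 the nearest value outside, 4.63 TPM. PARRI_0022034.t1 was listed at 0 in every male library, so that only its level in female library 1 kept it out. A limma fit over 18420 tested transcripts (log2 of TPM + 0.1, Benjamini-Hochberg FDR below 0.05) called all 16 higher in females, against 23.9% of all tested transcripts and 42.4% of those with at least 5 TPM in each female library. Nothing is read from this count, because the same values chose the members.

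**Figure D1:**
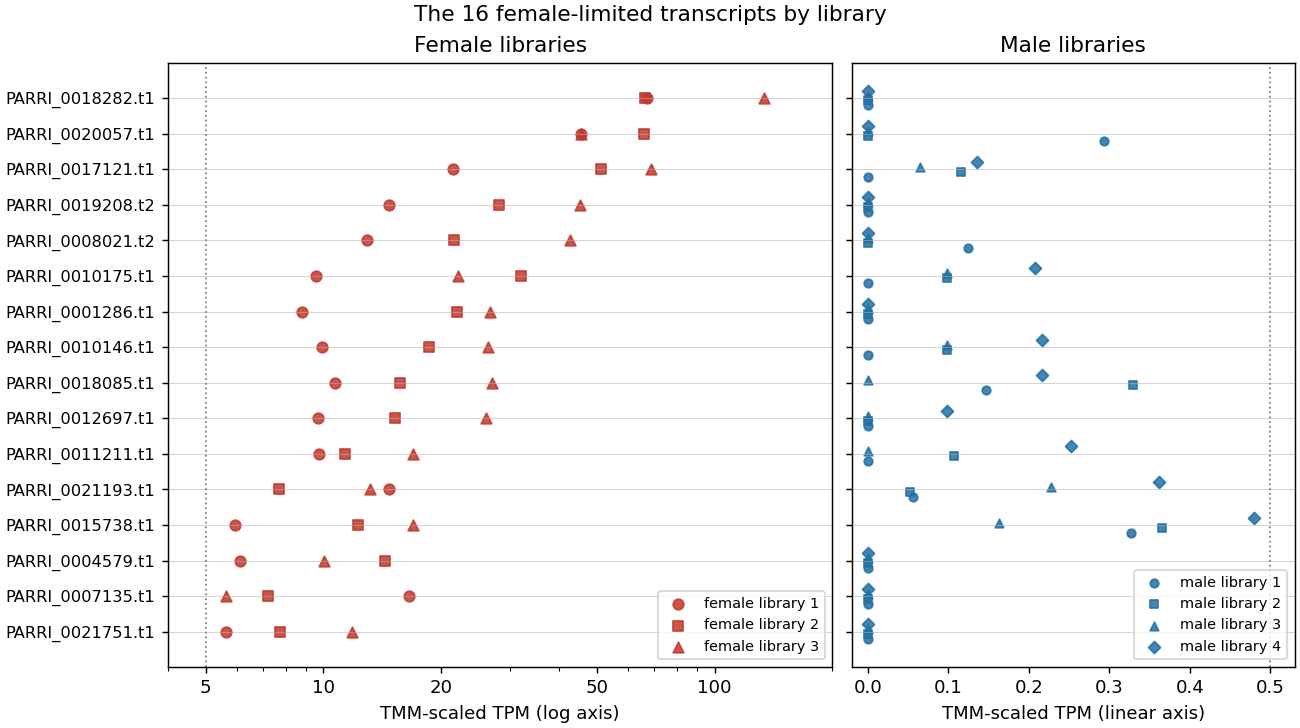
Each row is 1 of the 16 female-limited transcripts, ordered by the female mean, with the 3 female libraries on the left (TMM-scaled TPM, log axis) and the 4 male libraries on the right (linear axis). Dotted lines mark the 5 TPM floor and the 0.5 TPM ceiling of the choice. Female library 1 is the lowest point in 13 of the 16 rows, and 6 rows show 0 in every male library.

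The female levels were moderate. The female means of the 16 had a median of 18.0 TPM, against 39.5 TPM for all 9730 transcripts that reached the floor, and 3 of the 16 lay above that median. Together the 16 made up 0.0295%, 0.0387% and 0.0497% of the summed TPM of female libraries 1 to 3.

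PARRI_0017121.t1 was the member with the most counts behind its value. It had 21.5, 51.3 and 68.8 TPM in female libraries 1 to 3 (mean 47.2, SD 23.9, n = 3), against 0, 0.116, 0.0650 and 0.136 TPM in male libraries 1 to 4. The lowest female library was far above the highest male library. Its mean normalized count, taken from the authors' deposited table, was 701 in females and 1.00 in males. Normalized counts are read counts divided by a size factor per library and averaged by the authors over a sex. The ratio of these means was 699, with a 95% exact interval of 273 to 2574 that covers counting error only and treats normalized counts as counts.

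PARRI_0020057.t1 was the steadiest of the 16 across females. It had 45.5, 65.8 and 45.6 TPM in female libraries 1 to 3 (mean 52.3, SD 11.7, n = 3), against 0.293 TPM in male library 1 and 0 in the other male libraries. The maximum over minimum in females was 1.45, the lowest of all members, and the mean normalized count was 152 in females and 0.200 in males. Over the 4 male libraries this amounts to a summed normalized count of 0.800. Because normalized counts are divided by a size factor, a single read can come to less than 1.

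Next in female level came a pair of .t2 transcripts. PARRI_0019208.t2 had 14.7, 28.1 and 45.3 TPM in female libraries 1 to 3, against 0 in every male library. PARRI_0008021.t2 had 12.9, 21.6 and 42.7 TPM in the same female libraries, against 0.124 TPM in male library 1 and 0 in the other male libraries. Both were lowest in female library 1 and highest in female library 3. Their mean normalized counts in females were 122 and 319, and the other transcripts of their loci are described further on.

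PARRI_0010175.t1 and PARRI_0010146.t1 had nearly the same values in males, from few counts. PARRI_0010175.t1 had 9.56, 31.9 and 22.1 TPM in female libraries 1 to 3, against 0, 0.0980, 0.0980 and 0.208 TPM in male libraries 1 to 4. PARRI_0010146.t1 had 9.90, 18.6 and 26.4 TPM in females, against 0, 0.0980, 0.0980 and 0.217 TPM in males. They thus had equal values in 3 of the 4 male libraries but differed in females, where library 2 was the highest for PARRI_0010175.t1 and library 3 for PARRI_0010146.t1. Both rested on a summed normalized count of 3.26 in males, and both had close to the same number of counts per TPM in females, 8.90 and 8.86. At so few counts, transcripts with near-equal counts per TPM can take equal values. The equal male values therefore say little about the pair. Their locus numbers are 29 apart, the smallest gap between any pair of members. Whether they are copies of one another, among which reads could have been divided, was not tested, since no sequence was used here.

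Another 3 members had male values above 0 in 1 to 3 libraries. PARRI_0018085.t1 had 10.7, 15.7 and 27.0 TPM in female libraries 1 to 3, against 0.147, 0.330, 0 and 0.217 TPM in male libraries 1 to 4. PARRI_0012697.t1 had 9.68, 15.3 and 26.0 TPM in females, against 0.0990 TPM in male library 4 and 0 in the other males. PARRI_0011211.t1 had 9.77, 11.4 and 16.9 TPM in females, against 0.107 TPM in male library 2, 0.253 TPM in male library 4 and 0 in the other males. In these 3 transcripts the female libraries kept the same order, with library 1 lowest and library 3 highest. The mean normalized counts were 329 in females and 2.75 in males for PARRI_0018085.t1, 329 and 0.419 for PARRI_0012697.t1, and 198 and 1.21 for PARRI_0011211.t1.

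PARRI_0021193.t1 and PARRI_0015738.t1 were the only members above 0 in all 4 male libraries. PARRI_0021193.t1 had 14.7, 7.70 and 13.1 TPM in female libraries 1 to 3, against 0.0560, 0.0530, 0.228 and 0.362 TPM in male libraries 1 to 4. PARRI_0015738.t1 had 5.95, 12.2 and 16.9 TPM in females, against 0.327, 0.365, 0.163 and 0.479 TPM in males. Their summed normalized counts over the 4 male libraries were 9.92 and 19.3, and PARRI_0018085.t1, with 11.0 from 3 male libraries, was the only other member above 5. The ratio of mean normalized counts (females over males) was 76.3 (95% exact interval 40.8 to 159) for PARRI_0021193.t1 and 40.3 (25.9 to 68.3) for PARRI_0015738.t1, and PARRI_0015738.t1 thus had a low but countable level in males.

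The other members were listed at 0 in every male library, and most of them rested on few reads. PARRI_0018282.t1 had the highest level of the 16, with 67.3, 66.4 and 134 TPM in female libraries 1 to 3 (mean 89.2, SD 38.7, n = 3), yet its mean normalized count was only 7.74. PARRI_0004579.t1 had 6.12, 14.3 and 10.04 TPM in females from a mean normalized count of 6.99. PARRI_0007135.t1 had 16.5, 7.20 and 5.63 TPM in females from a mean normalized count of 1.78, and was the sole member that was highest in female library 1 and lowest in female library 3. A TPM value is a count divided by the effective length of the transcript, so a few reads on a short effective length give a high TPM. PARRI_0001286.t1, with 8.83, 21.99 and 26.6 TPM in females, had a mean normalized count of 19.3. PARRI_0021751.t1, the member with the lowest female mean, had 5.63, 7.73 and 11.8 TPM in females and a mean normalized count of 46.9.

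For a transcript at 0 in all males, the fold between the sexes is a lower bound set by the counts. A floor of 3 counts over the 4 male libraries together was set against the mean normalized count in females. The bound was then 163-fold for PARRI_0019208.t2 and 62.5-fold for PARRI_0021751.t1. The bound was 25.8-fold for PARRI_0001286.t1, 10.3-fold for PARRI_0018282.t1 and 9.32-fold for PARRI_0004579.t1. For PARRI_0007135.t1 it was 2.38-fold, so that at this depth a modest male level of this transcript could not have been seen. These bounds cover counting error in males only and take the female mean as it stands. Where that mean rests on few counts, as in PARRI_0007135.t1, the true fold could lie below the bound.

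The number of counts per TPM in females, which rises with effective length, was lowest in 4 of these members. It was 0.0868 in PARRI_0018282.t1, 0.182 in PARRI_0007135.t1, 0.688 in PARRI_0004579.t1 and 1.011 in PARRI_0001286.t1. Of the 9730 transcripts at the female floor, 0.123% had fewer counts per TPM than PARRI_0018282.t1 and 3.95% had fewer than PARRI_0001286.t1. The median was 8.88 over the 16 members and 10.7 over the 9730 transcripts. In all, 4 of the 16 had a mean normalized count under 20 in females, against 1.87% of the 9730, and all 4 were among the 6 listed at 0 in every male library. With a minimum of 10 mean normalized counts, 13 of the 16 would be left.

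**Figure D2:**
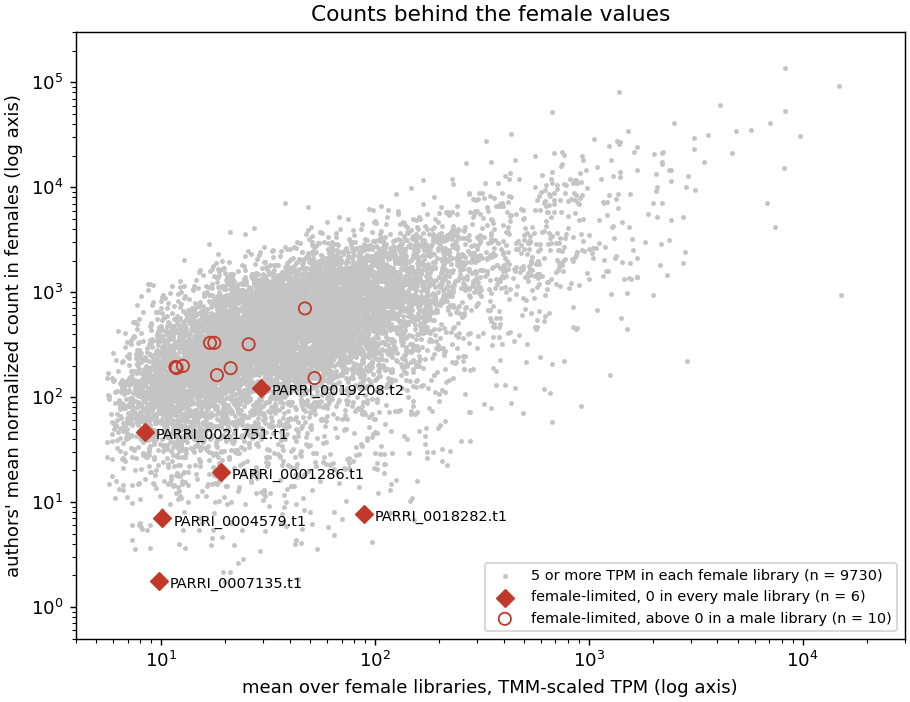
The mean over female libraries (TMM-scaled TPM) is plotted against the authors' mean normalized count in females, both on log axes. Grey points are the 9730 transcripts with at least 5 TPM in each female library, filled diamonds the 6 members at 0 in every male library and open circles the 10 members above 0 in a male library. The 10 open circles lie at 152 normalized counts or more, whereas 4 of the diamonds lie below 20.

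The female libraries did not contribute equally. Female library 1 was the lowest of the 3 in 13 of the 16 members and female library 3 the highest in 11. The same lean was seen in the 9107 floor transcripts that met the spread limit, of which 69.0% were lowest in female library 1 and 59.1% highest in female library 3. The median ratio of female library 3 to female library 1 was 2.42 over the members and 1.57 over these 9107 transcripts. The summed TPM of the members was 269, 397 and 539 in female libraries 1 to 3. The median maximum over minimum was 2.67 in the members and 1.88 in the 9107. No test was made of these differences. The exceptions to the common order were PARRI_0007135.t1 and PARRI_0021193.t1, both highest in female library 1, PARRI_0020057.t1, PARRI_0010175.t1 and PARRI_0004579.t1, highest in female library 2, and PARRI_0018282.t1, highest in female library 3 but lowest in female library 2.

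Among males, male library 4 had the highest summed level of the 16. The summed TPM of the 16 was 0.947, 1.17, 0.652 and 1.97 in male libraries 1 to 4. Of the 10 members above 0 in a male library, 7 were highest in male library 4, 2 in male library 1 and 1 in male library 2. Male library 4 also has the fewest read pairs in the study's sequencing summary, and in a shallower library each read is worth more TPM. Members above 0 numbered 5, 7, 5 and 8 in male libraries 1 to 4. The part of depth in these values was not tested. PARRI_0017121.t1, PARRI_0010175.t1, PARRI_0010146.t1 and PARRI_0011211.t1 each had 0 in male library 1 and their highest male value in male library 4.

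Leaving a library out of the choice gave a measure that the choice did not use. Without male library 1 the rule gave the same 16 transcripts, all below 0.5 TPM there. Without male library 2 it gave 19 transcripts and without male library 3 it gave 24, and 16 of each stayed below 0.5 TPM in the library left out. Most of those that did not were still low, with at most 3.58 TPM (PARRI_0001275.t1) in male library 2 and 2.90 TPM (PARRI_0010149.t1) in male library 3. The rule still held female values at 5 TPM or more, so values this low put all 19 and all 24 below each female library. How often other transcripts meet these limits in a library left out is not given. Without male library 4 there were 25 transcripts, 9 of which had at least 0.5 TPM there. The exception among them was PARRI_0002446.t1, with 8.96, 25.5 and 28.6 TPM in female libraries 1 to 3, against 26.9 TPM in male library 4 and 0 in the other males, from mean normalized counts of 2.16 in females and 1.26 in males. PARRI_0015362.t1, with 106, 190 and 210 TPM in females, had 7.57 TPM in male library 4 and 0 in the other males.

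Leaving out female library 1 changed the size of the set most. Without it the rule gave 37 transcripts, of which 33 were above every male library in female library 1 and 4 were listed at 0 there. The rule still held the male values below 0.5 TPM, so any value from 0.5 TPM up in female library 1 lay above them. PARRI_0021748.t1, for example, had 4.10 TPM in female library 1, with 26.4 and 45.0 TPM in female libraries 2 and 3, against 0.143 TPM in male library 2 and 0 in the other males. Among the transcripts at 0 in female library 1, PARRI_0011654.t2 had 19.1 and 9.17 TPM in female libraries 2 and 3 and a mean normalized count of 101 in females, while PARRI_0003076.t1 and PARRI_0021561.t1 had mean normalized counts of 1.10. Leaving out female library 2 or female library 3 gave 18 transcripts each. PARRI_0015887.t1, one of these 18, was listed at 0 in female library 3 and had a mean normalized count of 1.03 in females. The transcripts of this and the preceding paragraph that are not members were named after their values were seen.

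A further measure the rule did not use is the rest of the locus. Of the 16 member loci, 14 listed a single transcript, and PARRI_0008021 and PARRI_0019208 listed another besides the member. Among all 24899 loci, 5.03% listed more than 1.

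At PARRI_0008021 the female-limited transcript stood beside one that did not differ detectably between the sexes. PARRI_0008021.t1 had 33.6, 40.3 and 35.9 TPM in female libraries 1 to 3, against 32.8, 33.8, 39.3 and 40.3 TPM in male libraries 1 to 4. The libraries of the sexes overlapped, and females minus males came to 0.00 on the log2 scale (standard error 0.22, limma FDR 0.99). PARRI_0008021.t2 thus made up 27.8%, 34.9% and 54.3% of the summed TPM of its locus in female libraries 1 to 3, against 0.376% in male library 1 and 0% in the other males. The locus as a whole was expressed in both sexes, and the limitation to females concerned 1 of its transcripts. How the authors' quantification divided the reads that both transcripts can hold was not tested.

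At PARRI_0019208 the companion transcript was also higher in females. PARRI_0019208.t1 had 30.3, 50.8 and 96.8 TPM in female libraries 1 to 3, against 1.297, 0.855, 1.07 and 3.20 TPM in male libraries 1 to 4. Every female library was above every male library, and females minus males came to 5.14 on the log2 scale (standard error 0.55, limma FDR 0.00050). PARRI_0019208.t2 made up 32.7%, 35.6% and 31.9% of the locus in female libraries 1 to 3 (mean 33.4%, SD 1.96, n = 3). In every male library the share was 0%. In males the mean normalized count was only 5.93 for PARRI_0019208.t1 and 0 for PARRI_0019208.t2, against 246 and 122 in females. Whether the share differs between the sexes was not tested.

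**Figure D3:**
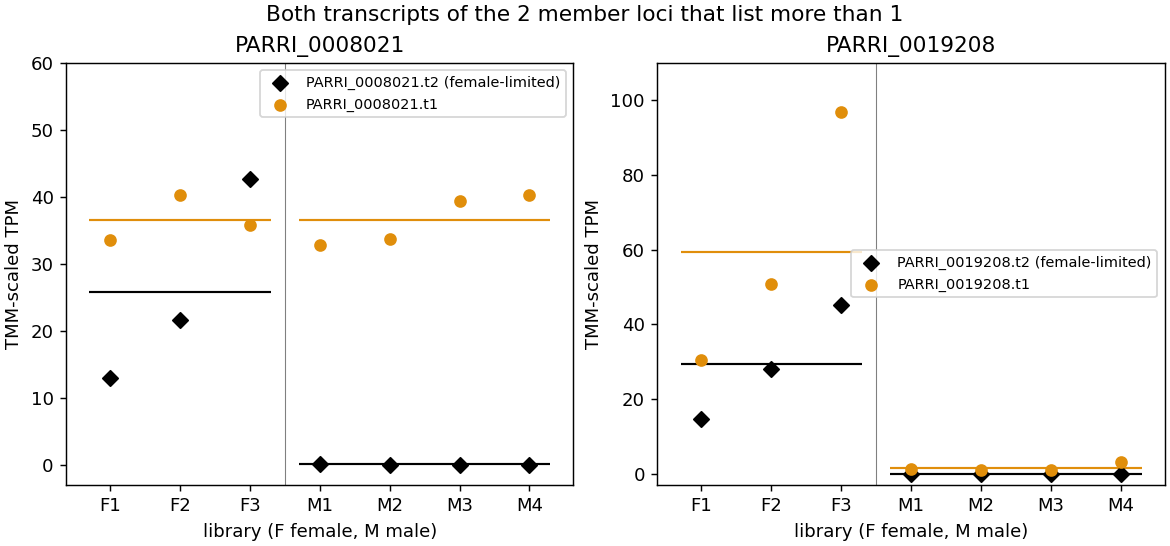
TMM-scaled TPM of both transcripts at PARRI_0008021 (left) and PARRI_0019208 (right) in the 3 female libraries (F1 to F3) and the 4 male libraries (M1 to M4). Points are libraries and horizontal lines group means. PARRI_0008021.t1 (circles) lies between 32.8 and 40.3 TPM in all 7 libraries, whereas PARRI_0019208.t1 is above 30 TPM in females and at most 3.20 TPM in males.

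The loci next in number to the members were examined as well, since their values had no part in the choice. Locus numbers stand in for position here, and whether neighbouring numbers are neighbours on a scaffold was not checked. No member was next in number to another. The 32 adjacent loci listed 33 transcripts, of which 23 passed the filter for testing (at least 1 TPM in at least 3 libraries). Of these 23, 12 were called higher in females, 5 higher in males, and 6 were not called. The background was 23.9% higher in females and 25.3% higher in males over all tested transcripts, and 43.3% higher in females over the transcripts next in number to any locus called higher in females. The share of 52.2% in the 23 lies nearer to 43.3% than to 23.9%, and no more is read from it. The median log2 difference (females minus males) was 0.85 over the 23, against -0.50 over all tested transcripts, a median that quantile normalization moved to -0.01. Under that scaling the count higher in males was 3 in place of 5. Within 3 locus numbers, 21 of 75 tested transcripts were called higher in females, which is near the background.

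The adjacent transcript with the largest difference was PARRI_0020056.t1, beside the steady PARRI_0020057.t1. It had 45.8, 81.2 and 93.0 TPM in female libraries 1 to 3, against 0, 0.178, 1.16 and 0.199 TPM in male libraries 1 to 4 (females minus males 7.78 on the log2 scale, standard error 0.80, limma FDR 0.00045). It missed the choice through male library 3 alone. The following locus, PARRI_0020058.t1, went the other way, with 21.5, 22.05 and 9.31 TPM in females, against 39.9, 48.9, 79.8 and 35.96 TPM in males (females minus males -1.56 in log2 units, standard error 0.41, limma FDR 0.015).

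In 3 more places a transcript much like the member stood next to it. PARRI_0012698.t1, beside PARRI_0012697.t1, had 7.37, 15.9 and 23.0 TPM in females, against 0.135, 0.811, 0.141 and 0.307 TPM in males (females minus males 5.21 in log2 units, standard error 0.66, limma FDR 0.00081). PARRI_0021752.t1, beside PARRI_0021751.t1, had 2.37, 7.13 and 5.599 TPM in females, against 0.446 TPM in male library 2 and 0 in the other males (females minus males 4.93 in log2 units, standard error 0.84, limma FDR 0.0024). PARRI_0015737.t1, beside PARRI_0015738.t1, had 10.3, 15.4 and 21.2 TPM in females, against 0.496, 0.971, 0.726 and 2.96 TPM in males (females minus males 3.74 in log2 units, standard error 0.61, limma FDR 0.0020). In each of these neighbours every female library was above every male library, which the rule had fixed in advance for the members. The neighbours were named for their large differences, and 16 of the 23 tested adjacent transcripts had no overlap between the sexes, in either direction. The share without overlap over all tested transcripts is not given here. In the pairs at PARRI_0012697 and PARRI_0015738 the female libraries also kept 1 order, with library 1 lowest and library 3 highest in both transcripts.

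Milder differences in the same direction flanked 3 members on both sides. At PARRI_0021193 the neighbours PARRI_0021192.t1 and PARRI_0021194.t1 had ratios of group means (females over males) of 5.35 and 3.95. At PARRI_0010146 the ratios of PARRI_0010145.t1 and PARRI_0010147.t1 were 3.17 and 2.61. Beside PARRI_0008021 they were 1.81 for PARRI_0008020.t1 and 2.02 for PARRI_0008022.t1. All 6 passed a limma FDR of 0.05, with values between 0.0044 and 0.016. In all 6 the female libraries lay above the male libraries, but they were named after their values were seen. Among transcripts next in number to any locus called higher in females, 43.3% were called higher in females, against 52.2% of the 23. How often such loci are flanked on both sides was not counted. The flanking is therefore not read as a trait of these 3 members. They are among the 16 of 23 tested adjacent transcripts without overlap between the sexes.

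PARRI_0018085.t1 lay between transcripts of the opposite pattern. PARRI_0018086.t1 was listed at 0 in every female library and had 3.99, 4.13, 4.16 and 4.04 TPM in male libraries 1 to 4 (limma FDR 0.00038), from a mean normalized count of 17.1 in males. PARRI_0018084.t1 had 0.511, 0.800 and 0.347 TPM in females, against 4.24, 2.83, 2.88 and 2.53 TPM in males (females minus males -2.33 in log2 units, standard error 0.49, limma FDR 0.0057), a difference that did not pass under quantile normalization (FDR 0.17). Thus 3 consecutive locus numbers held a female-limited transcript between a pair of male-elevated ones. PARRI_0019209.t1, beside PARRI_0019208, had 0.465, 0.626 and 0.423 TPM in females, against 1.59, 1.22, 2.29 and 1.89 TPM in males (limma FDR 0.032). This last difference was weakly supported, since it lost the threshold in 7 of 12 alternative settings and turned positive under quantile normalization.

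**Figure D4:**
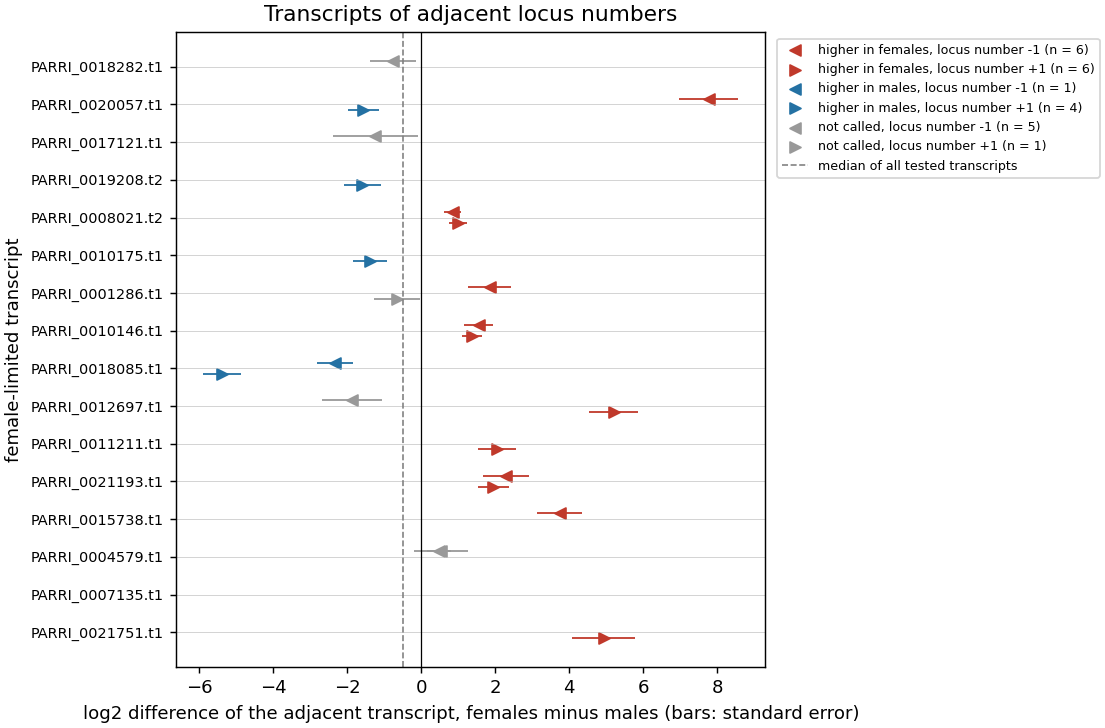
Log2 difference (females minus males) with its standard error for the 23 tested transcripts whose locus number is 1 below (left-pointing) or 1 above (right-pointing) that of a member, in a row for each member. Red marks the 12 called higher in females, blue the 5 called higher in males, grey the 6 not called, and the dashed line the median of all tested transcripts at -0.50. PARRI_0018085.t1 has both neighbours on the male side.

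The same rule with the sexes exchanged (at least 5 TPM in each male library, below 0.5 TPM in each female library, maximum over minimum below 4 among males) gave 80 transcripts. Female-limited transcripts were thus fewer than male-limited ones by these rules, 16 against 80. The rules are not equally strict, since the mirrored one asks for the floor in 4 libraries and for the ceiling in only 3. The ceiling removed most transcripts, leaving 17 of 9730 at the female floor and 93 of 11139 at the male floor. The 16 also became 45 after quantile normalization and 37 without female library 1, and the 80 are given for the deposited values only. Of the 16, 37.5% were listed at 0 in all libraries of the other sex, against 30.0% of the 80. A mean normalized count under 20 in the expressing sex was found for 4 of the 16 and for 12 of the 80. The median level in the expressing sex was 18.0 TPM for the 16 and 10.4 TPM for the 80. No test was made of these differences.

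None of the 16 belonged to the genes of this species that the study names for sex or for tolerance of drying. The lists were the 5 DMRT transcripts, the 3 transcripts of the sxl candidates and 1 of tra2 (both RNA-binding regulators of splicing in the sex cascade of Drosophila), 1 candidate of the DNA-shielding protein Dsup, 13 CAHS and 10 SAHS transcripts of heat-soluble proteins, and 36 AMNP transcripts of peroxidases. Higher values in females were called in 2 of the 3 sxl candidate transcripts, the tra2 transcript, the Dsup candidate and 1 of the 10 SAHS transcripts, and in 0 of the 5 DMRT, 13 CAHS and 34 tested AMNP transcripts, against 23.9% of all tested transcripts. Calls in the other direction were made for 3 DMRT, 3 CAHS, 8 AMNP and 1 sxl candidate transcript, against 25.3% of all tested transcripts, and the CAHS and AMNP shares (3 of 13 and 8 of 34) lie near that background. The female floor of the rule was reached by 10 SAHS, 30 AMNP and 9 CAHS transcripts, the Dsup candidate, the tra2 transcript and 1 sxl candidate transcript, but none of them stayed under its male ceiling.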

How the data were processed

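RNA-Seq libraries of pooled adults, 3 of females and 4 of males, were grouped by the sex and replicate number of their labels. Using RSEM 1.3.3 against predicted coding sequences, the authors made and deposited a TMM-scaled TPM signal per transcript and library, whose lowest library sum was 891117. The authors also deposited a DESeq2 1.38.0 table, of which the mean normalized count per sex, a signal pooled over libraries, was used here, while its fold changes and p-values were not used. TPM keeps no depth, so these means describe the counts behind a value. Intervals are exact (95%), cover counting error only, and round sums to whole counts.

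The sexes were compared with limma 3.58.1 (R 4.3.3) (values as log2 of TPM + 0.1, a single sex term, trended prior variance) in transcripts with at least 1 TPM in at least 3 libraries. The study's test was made on counts, which were not used here. The fit was tested on simulated data, where it missed many of the planted differences. A transcript that was not called may therefore still differ between the sexes. Python 3.11.15, pandas 2.3.3, SciPy 1.17.1 and matplotlib 3.10.9 were used for the rest. All 16 members are described. Adjacent transcripts were named by the 4 largest called differences in each direction, and those flanking 3 members on both sides after their values were seen. Members and lists were chosen with earlier results of these data known. Alternatives were other thresholds, scalings, filters and pseudocounts, a replicate block, and leaving out each library.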

Additional observations from a re-analysis of the deposited data

Results flagged for a closer look

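For 26 transcripts the 4 male values were searched for 1 library far from the rest, and 20 of the 26 had any spread among males. The search would pick out about 5% of groups of normally distributed values by chance, a rate that does not hold for values tied at 0 or, as in the members, chosen to be below 0.5 TPM. In 4 transcripts a single male library was above 0 and the others were listed at 0, so that the gap to the nearest library was 1 as a share of the whole range. They were PARRI_0008021.t2 (0.124 TPM in male library 1), PARRI_0020057.t1 (0.293 TPM in male library 1), PARRI_0012697.t1 (0.0990 TPM in male library 4) and PARRI_0021752.t1 (0.446 TPM in male library 2). All 4 values are below 0.5 TPM, and the summed normalized count over males was 0.800 for PARRI_0020057.t1, 1.60 for PARRI_0008021.t2 and 1.68 for PARRI_0012697.t1.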

How the results depend on the processing

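The number of female-limited transcripts followed its thresholds. It was 7 with males below 0.1 TPM and 39 with males below 1 TPM, 6 with females at 10 TPM or more and 36 with females at 2 TPM or more, and 45 after quantile normalization, which kept all 16. Over omissions of single libraries it ranged from 16 to 37, the highest without female replicate 1 and 25 without male replicate 4. Rescaling each library to the same sum gave 17, of which 15 were among the 16. The 12 adjacent transcripts called higher in females numbered 21 within 3 locus numbers and 9 to 13 with each library left out. The 5 called higher in males numbered 18 within 3 locus numbers, 2 when a mean of 5 TPM was required, 3 under quantile normalization, 3 with the replicate number as a block, and 3 to 5 with each library left out, the lowest without female replicate 3, male replicate 1 or male replicate 3. For PARRI_0019209.t1 the log2 difference (females minus males) was 0.24 under quantile normalization (FDR 0.76). Same-numbered libraries did not consistently deviate together. Their correlations were -0.01, 0.03 and 0.25, against 0.26 for female library 1 with male library 4. The replicate block therefore pairs libraries by number only. The block gave 10 adjacent transcripts higher in females and called all 16 members. When a female library was left out, the filter asked for at least 1 TPM in 2 libraries, and a minimum of 10 mean normalized counts left 13 of the 16, both chosen after seeing the data. The cause of these changes was not tested.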
